A study of Homo sapiens with 12 samples.

Results

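The 48 genes described here encode the proteins of glucose handling: 4 glucose transporters, 3 hexokinases, 7 enzymes each of upper and lower glycolysis, 5 proteins of lactate handling, 3 enzymes that make or break fructose-2,6-bisphosphate, 6 proteins around pyruvate dehydrogenase, 6 enzymes of the pentose phosphate pathway and 7 of glycogen and gluconeogenesis. They were taken by gene symbol from a list of pathway members out of 58735 genes in the count table. All 48 were present, and 47 of them were among the 16046 genes with enough counts to be tested. The exception was PDK4, a kinase that switches off pyruvate dehydrogenase, with 2 to 13 counts per library.

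The sequenced cells were tumor-associated macrophages (TAMs) modelled by THP-1, a human monocytic leukemia cell line, after differentiation with PMA, a phorbol ester. In all groups they shared medium with AsPC-1 human pancreatic cancer cells across a Transwell membrane, so that secreted factors but not cells could pass. Control TAMs faced AsPC-1 cells carrying an empty vector, and OE-MMP28 TAMs faced AsPC-1 cells that stably overexpressed the matrix metalloproteinase MMP28 from a lentivirus. In the anti-IL-8 and anti-VEGFA groups the AsPC-1 cells also overexpressed MMP28, and a neutralizing antibody to IL-8 or to VEGFA was added. Each of the 4 groups held 3 libraries. No group is labelled as having received a control antibody, and although the study's methods call its cell experiments independent repeats in general, neither they nor the labels say that the 3 libraries of a group came from separate cultures, so that the p-values measure the spread between these libraries, which may be technical. All libraries come from 1 macrophage line and 1 cancer line, and every control library comes from vector cells, so that any shared trait of the control cultures and the overexpression cannot be told apart.

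Glucose enters macrophages through facilitative transporters and is trapped by hexokinases as glucose-6-phosphate. From there, carbon runs down glycolysis to pyruvate and lactate, enters the pentose phosphate pathway, which yields NADPH and ribose, or is stored as glycogen. Inflammatory activation of macrophages is known for a rise in glycolysis and in pentose phosphate flux, while alternative activation relies more on mitochondrial oxidation. Messenger RNA levels do not measure these fluxes.

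Library totals lay between 15852346 and 18701195 counts, and 3 counts correspond to a level of 0.160 to 0.189 CPM, where CPM is the count scaled to a fixed library size. The 48 genes together took 0.734% to 0.957% of the counts. Of 10 macrophage markers, none was at 0 in all 12 libraries. Their summed level was 6417 to 7282 CPM in control, 6854 to 9409 in OE-MMP28, 8280 to 10320 in the anti-IL-8 group and 7364 to 8489 in the anti-VEGFA group. The highest of them was CTSB, at 2767 to 4620 CPM. CD68, a defining marker, had only 0 to 5 counts, and LYZ was at 4.83 to 10.0 CPM. Of 10 epithelial markers, EPCAM was at 0 in all 12 libraries, and the summed level, most of it MUC1, was 4.74 to 5.45 CPM in control, 2.31 to 3.25 in OE-MMP28, 3.44 to 4.83 in the anti-IL-8 group and 4.11 to 4.52 in the anti-VEGFA group. MMP28 itself had 0 counts in each TAM library. Of 5 fibroblast markers, LUM was at 0 in all libraries and the sum reached at most 3.54 CPM, and of 4 T cell markers CD3D, CD3E and CD3G were at 0 while TRAC, at 9.03 to 19.2 CPM, made up the rest. Mitochondrial genes took 6.92% to 17.8% of the counts, the highest share being in anti-VEGFA replicate 2. OE-MMP28 replicate 2 stood apart in base composition, with a correlation of -0.66 across genes between its deviation from the mean of all libraries and the GC content of transcripts. This correlation was -0.28 and 0.03 in OE-MMP28 replicates 1 and 3 and -0.31 to -0.13 in control. It was 0.25 to 0.50 under anti-IL-8 and 0.13 to 0.27 under anti-VEGFA. The part of these marker levels in the results was not tested. Base composition is treated with the antibody comparisons. With the mitochondrial share as a covariate, added after the values were seen, the member counts for anti-IL-8 and anti-VEGFA against OE-MMP28 went from 0 and 0 to 6 and 1, and those over all genes from 0 and 55 to 1739 and 310. Since these are bulk samples, fewer cells of a kind and less RNA per cell cannot be told apart.

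Across the 12 libraries, the order of the members per length of gene (FPKM, as the authors computed it) was led by the enzymes of lower glycolysis. The gene length given was that of all annotated exons merged, which can differ from the length of the transcript expressed, so the order depends on it. PKM, the pyruvate kinase that yields pyruvate, had the highest mean, 297 FPKM, followed by GAPDH at 199, PGD at 191 and ENO1 at 152. GAPDH, which also has 62 annotated pseudogenes that take 1.02% to 3.82% of their shared count, oxidizes glyceraldehyde-3-phosphate, PGD is an NADPH-producing dehydrogenase of the pentose phosphate pathway, and ENO1 is the enolase of most tissues. PKM ranged from 225 to 335 FPKM and GAPDH from 164 to 239, so these neighbours in the order overlapped between libraries, as did GAPDH and PGD, which ranged from 153 to 239. The lowest mean levels were those of PDK4 (0.0839 FPKM), SLC2A5, a fructose transporter (0.282), PGM1, a phosphoglucomutase (0.313), and PFKM, the muscle-type phosphofructokinase (0.357). ALDOA, the common aldolase, was listed at only 1.38 FPKM, and 42.31% of its exonic bases are shared on the same strand with the annotated gene AC093512.2, so its count is uncertain. The same holds for LDHB, of whose exonic bases 33.42% lie in AC010197.2. PDK2 shares 38.55% with SAMD14 on the opposite strand, and whether the counting used strand is not given in the sources used here.

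Some steps were carried by 1 isoenzyme and others were shared. In control TAMs, PFKP made up 82.6% ± 0.337 of the phosphofructokinase FPKM (SD, n = 3), LDHA 86.2% ± 2.77 of the lactate dehydrogenase FPKM and ENO1 96.9% ± 0.238 of the enolase FPKM. HK2, the inducible hexokinase, and HK1, the housekeeping form, took 53.5% ± 2.68 and 43.3% ± 2.85 of the hexokinase FPKM, with HK3 at 3.18% ± 0.332. PFKFB3 and PFKFB4, which set the level of the glycolytic activator fructose-2,6-bisphosphate, took 46.5% ± 1.65 and 51.4% ± 1.70 of their step. SLC2A1, the general glucose transporter, took 56.1% ± 1.85 of its step and SLC2A3, a high-affinity transporter, 20.2% ± 0.198. All these shares depend on the gene length by which FPKM divides. From counts without a length, the mean control shares were 72.25% for PFKP, 92.86% for LDHA, 53.42% for HK2 and 44.85% for HK1.

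**Figure D1:**
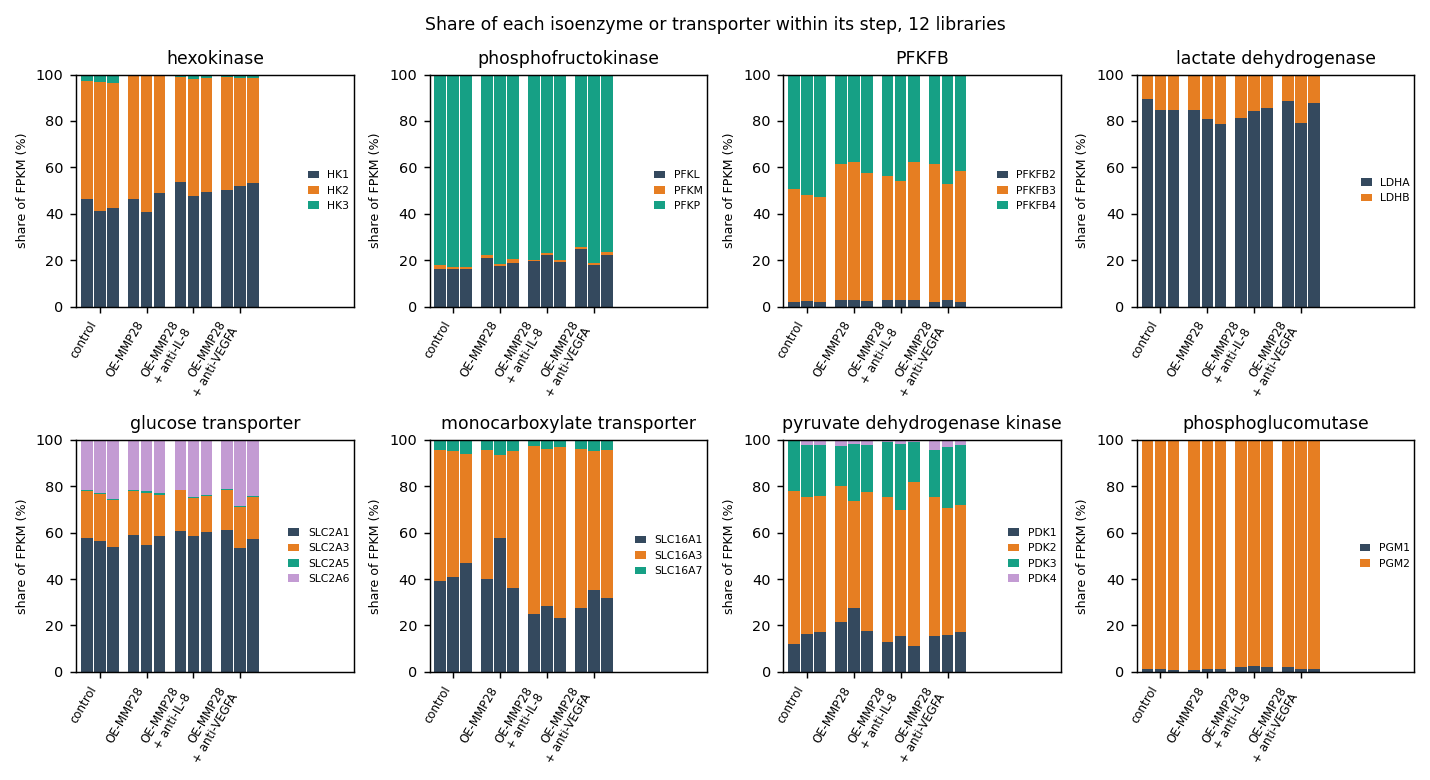
Share of each isoenzyme or transporter in the summed FPKM of its step (vertical axis, percent), with 1 bar per library and 3 bars per group in replicate order. The HK3 segment is largest in the control libraries, at 2.90% to 3.55%, and the SLC16A3 segment is larger in the anti-IL-8 libraries, at 67.8% to 73.8%, than in control, at 46.8% to 56.4%.

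Promoters are shown for context, for the 5 members called in at least 2 of the 6 comparisons at an adjusted p of 0.05. Calls come from the quasi-likelihood test of edgeR, with p-values adjusted over all tested genes after Benjamini and Hochberg. All comparisons in which members were called share the control libraries, so a repeated call is not independent. How many of all tested genes were called as often is not given, so this choice is no result about the members. Each window runs from 250 bases before to 50 after a gene start of RefSeq (GRCh38.p14). In these windows 3 short motifs were searched on both strands, namely ACGTG, the core of the site for hypoxia-inducible factors, which also lies within the E-box CACGTG, the interferon-stimulated repeat of GAAA spaced by any 2 bases, and GAGGAAGT, a site of the macrophage factor PU.1. Capitals mark every match, and the sequences run 5′ to 3′ on the strand of the gene.
HK3, chr5:176899297-176899596, minus strand: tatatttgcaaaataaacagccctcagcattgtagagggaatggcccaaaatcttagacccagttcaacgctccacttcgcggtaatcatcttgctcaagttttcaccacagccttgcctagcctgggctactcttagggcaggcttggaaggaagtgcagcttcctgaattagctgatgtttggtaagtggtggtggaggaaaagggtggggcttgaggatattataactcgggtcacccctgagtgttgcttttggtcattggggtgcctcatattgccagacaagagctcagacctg
PFKFB4, chr3:48556754-48557053, minus strand: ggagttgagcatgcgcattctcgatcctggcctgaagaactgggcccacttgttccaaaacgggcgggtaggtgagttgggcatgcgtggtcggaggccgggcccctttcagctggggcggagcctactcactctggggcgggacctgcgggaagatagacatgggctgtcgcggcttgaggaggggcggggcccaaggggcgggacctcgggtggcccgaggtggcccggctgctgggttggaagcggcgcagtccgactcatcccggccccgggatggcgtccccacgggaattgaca
FBP1, chr9:94639469-94639768, minus strand: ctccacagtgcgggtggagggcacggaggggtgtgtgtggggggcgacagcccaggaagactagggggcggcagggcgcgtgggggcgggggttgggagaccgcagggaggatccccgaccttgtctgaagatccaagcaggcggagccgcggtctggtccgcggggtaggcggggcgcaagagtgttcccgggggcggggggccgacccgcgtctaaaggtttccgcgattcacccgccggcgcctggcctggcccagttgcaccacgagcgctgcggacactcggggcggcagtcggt
TKT, chr3:53255973-53256272, minus strand: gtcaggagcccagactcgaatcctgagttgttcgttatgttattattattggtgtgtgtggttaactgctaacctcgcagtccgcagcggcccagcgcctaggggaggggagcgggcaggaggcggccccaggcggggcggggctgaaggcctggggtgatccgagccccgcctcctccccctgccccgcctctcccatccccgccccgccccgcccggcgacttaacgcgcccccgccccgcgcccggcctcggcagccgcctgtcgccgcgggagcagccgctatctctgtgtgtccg
PGM2, chr4:37826436-37826735, plus strand: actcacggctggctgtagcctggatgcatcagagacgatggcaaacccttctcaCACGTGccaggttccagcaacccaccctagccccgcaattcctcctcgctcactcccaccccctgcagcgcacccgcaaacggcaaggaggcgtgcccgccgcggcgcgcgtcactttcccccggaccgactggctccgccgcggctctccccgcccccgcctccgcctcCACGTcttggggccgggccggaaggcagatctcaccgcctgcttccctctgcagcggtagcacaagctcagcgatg
Only the PGM2 window of these 5 held a match: ACGTG on the forward strand from base -195, its reverse complement from base -196, which together form the E-box, and another reverse match from base -26 relative to the start. No match in the other 4 windows says only that these letters are not in them. RefSeq promoters were found for 45 of the 48 members, 77 windows in all because several genes have more than 1 start. ACGTG was present in 35.1% of these windows and in 21.4% of all 35116 windows. By gene, 23 of the 45 members (51.1%) and 24.9% of all 27305 genes had it in at least 1 window. It was found in the windows of HK2, GAPDH, PGK1, LDHA, PDK1 and PFKFB3, among others. No window of SLC2A1, PFKL, PGAM1, ENO1, PKM or LDHB, among others, held it. The GAAA repeat was in the windows of 1 member gene (2.22%, against 4.38% of all genes) and GAGGAAGT in those of 3 (6.67%, against 3.15%). The HK3 window had a GC content of 49.0%, and the other 4 windows ranged from 68.0% to 72.7%.

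The first comparison asked what MMP28 overexpression in the cancer cells changed in the TAMs. At an adjusted p of 0.05, 3 of the 47 tested members differed between OE-MMP28 and control TAMs: FBP1 was higher, and HK3 and PFKFB4 were lower. That is 6.38% of the members, where 3.16% of all tested genes were called, 0.523% as higher and 2.64% as lower. At an unadjusted p of 0.05 the count was 8 members (17%, against 14.5% of all genes). The median log2 fold change was 0.07 over the members and 0.02 over all genes. Whether called or not, 31 of the 47 (66%) had a fold change above 0, as had 53.3% of all genes.

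HK3 (ENSG00000160883, chr5:176880869-176899332), a hexokinase found mainly in myeloid cells, was expressed at 5.13, 5.37 and 5.33 CPM in the control libraries. Its levels were 1.21, 0.702 and 1.19 CPM in OE-MMP28, 1.80, 2.67 and 2.47 under anti-IL-8, and 1.96, 2.03 and 2.19 under anti-VEGFA. All control libraries were thus above all others, the OE-MMP28 libraries were the lowest, and both antibody groups lay between them without overlap with either. The log2 fold change of OE-MMP28 against control was -2.35 (SE 0.26, adjusted p 9.5e-06), that is 5.08-fold lower. Both antibody groups were also below control, by -1.19 under anti-IL-8 (SE 0.24, adjusted p 0.0033) and by -1.35 under anti-VEGFA (SE 0.24, adjusted p 0.0015). Each of these calls held whichever of the 12 libraries was left out. HK3 was the scarcest hexokinase in every group, and its share of the hexokinase FPKM was 0.630% ± 0.169 in OE-MMP28, 1.41% ± 0.311 under anti-IL-8 and 1.36% ± 0.223 under anti-VEGFA (SD, n = 3). HK1 and HK2, which carry the step, were not called in any comparison.

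PFKFB4 (ENSG00000114268, chr3:48517684-48562015), a bifunctional enzyme of fructose-2,6-bisphosphate, stood at 69.7, 68.0 and 69.3 CPM in control and at 40.9, 32.6 and 38.5 in OE-MMP28. Under anti-IL-8 it was at 45.0, 47.1 and 46.2 CPM, and under anti-VEGFA at 52.7, 42.9 and 53.5. Every library of the other 3 groups lay below every control library, with the OE-MMP28 libraries lowest. The log2 fold change against control was -0.89 in OE-MMP28 (SE 0.13, adjusted p 1.9e-04), -0.58 under anti-IL-8 (SE 0.12, adjusted p 0.0050) and -0.47 under anti-VEGFA (SE 0.12, adjusted p 0.022). Leaving out a library never ended the first 2 of these calls. That under anti-VEGFA was lost without any 1 of the control libraries or without anti-VEGFA replicate 2, with an adjusted p of up to 0.089. PFKFB3, the kinase-dominated member of the family, was at 62.6 ± 4.82 CPM in control and 54.9 ± 6.82 in OE-MMP28 (SD, n = 3), with overlapping libraries and an adjusted p of 0.69 in edgeR's test. The PFKFB4 share of the step was 39.4% ± 2.53 in OE-MMP28, 42.3% ± 4.32 under anti-IL-8 and 42.5% ± 4.26 under anti-VEGFA.

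FBP1 (ENSG00000165140, chr9:94603133-94640249), fructose-1,6-bisphosphatase, opposes phosphofructokinase in gluconeogenesis. Of its exonic bases 16.27% overlap a gene on the opposite strand, PCAT7. It was at 114, 111 and 104 CPM in control, 160, 149 and 194 in OE-MMP28, 214, 168 and 198 under anti-IL-8, and 148, 142 and 120 under anti-VEGFA. All 9 libraries with MMP28-overexpressing cells were above all 3 control libraries, and OE-MMP28 overlapped the anti-IL-8 group but not the anti-VEGFA group. Against control the log2 fold change was 0.62 in OE-MMP28 (SE 0.14, adjusted p 0.013), 0.82 under anti-IL-8 (SE 0.14, adjusted p 6.8e-04) and 0.32 under anti-VEGFA (SE 0.13, adjusted p 0.13). The call in OE-MMP28 was lost without control replicate 1, 2 or 3 (adjusted p 0.051, 0.067 and 0.083), while that under anti-IL-8 held in each of the 12 fits. Between the antibody groups FBP1 had the smallest p of all members, with a log2 difference of anti-VEGFA from anti-IL-8 of -0.50 (SE 0.13, adjusted p 0.12).

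**Figure D2:**
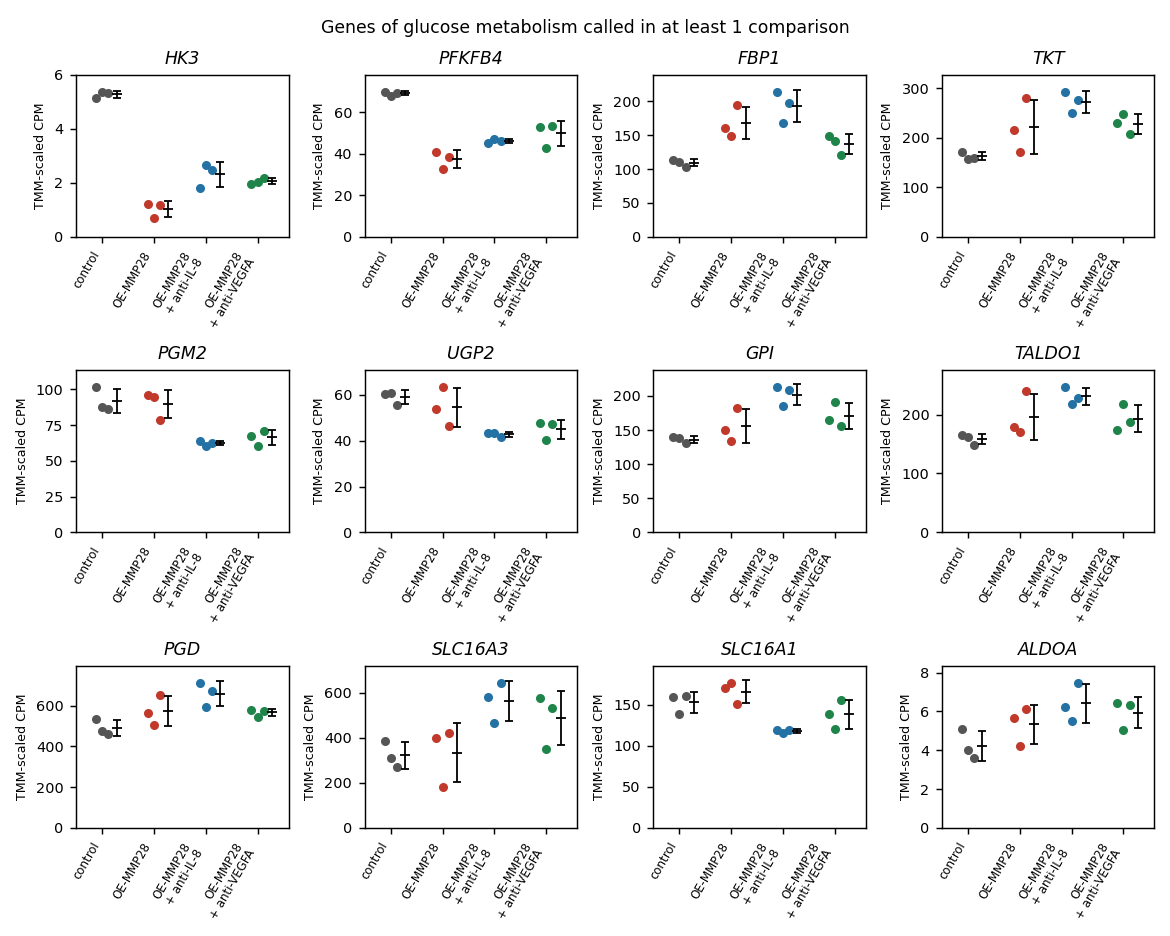
TMM-scaled CPM (vertical axes, from 0) of the 12 genes called in at least 1 comparison, with 1 point per library and the mean with its SD (bar, n = 3) beside each group. HK3 and PFKFB4 are highest in control and lowest in OE-MMP28, while FBP1 and TKT are lowest in control.

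Of the pentose phosphate enzymes, none passed the adjusted threshold in OE-MMP28 against control, although all 6 had a log2 fold change above 0, with a median of 0.27. TKT, the transketolase that links the pathway to glycolysis, had a log2 fold change of 0.45 (SE 0.15, adjusted p 0.14), and TALDO1, the transaldolase, of 0.31 (SE 0.14, adjusted p 0.31). None of 30 tested regulators of the pathway was called in OE-MMP28 against control in edgeR's test, with 6 of them under an unadjusted p of 0.05 (20%, against 14.5% of all genes).

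No glucose transporter and no enzyme of upper or lower glycolysis was called in this comparison. SLC2A1, the general glucose transporter, was at 174, 146 and 155 CPM in the control libraries, 191, 149 and 197 in OE-MMP28, 241, 180 and 263 under anti-IL-8, and 259, 130 and 224 under anti-VEGFA. All 3 anti-IL-8 libraries were above control, but the log2 fold change of 0.53 missed the threshold (SE 0.20, adjusted p 0.071), and the anti-VEGFA group held the lowest of the 12 libraries. SLC2A3, the high-affinity transporter, was at 80.1, 68.3 and 74.9 CPM in control, 81.0, 80.3 and 79.0 in OE-MMP28, 91.6, 66.3 and 90.2 under anti-IL-8, and 95.3, 56.1 and 92.2 under anti-VEGFA, where replicate 2 was the lowest of the 12. The adjusted p of SLC2A3 was 0.85 for OE-MMP28 against control. HK2 was at 165, 178 and 150 CPM in control, 167, 174 and 147 in OE-MMP28, 135, 144 and 162 under anti-IL-8, and 159, 114 and 126 under anti-VEGFA, with overlap between all groups.

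The abundant enzymes further down the pathway overlapped between OE-MMP28 and control as well. GAPDH was at 605, 536 and 498 CPM in the control libraries, 574, 566 and 688 in OE-MMP28, 717, 648 and 690 under anti-IL-8, and 565, 599 and 500 under anti-VEGFA. The anti-IL-8 libraries were above those of control, and OE-MMP28 against control had a log2 fold change of 0.16 (SE 0.13, adjusted p 0.64). PKM was at 2852, 2328 and 2172 CPM in control, 2470, 1948 and 2674 in OE-MMP28, 2891, 2542 and 2841 under anti-IL-8, and 2771, 2630 and 2764 under anti-VEGFA. Its 2 highest libraries were of the anti-IL-8 and control groups, and the log2 fold change of OE-MMP28 was -0.05 (SE 0.15, adjusted p 0.92). LDHA, the main lactate dehydrogenase, was at 322, 291 and 277 CPM in control, 320, 325 and 309 in OE-MMP28, 331, 311 and 299 under anti-IL-8, and 297, 312 and 310 under anti-VEGFA. All 12 LDHA values thus lay within a narrow band, and its adjusted p was 0.75 for OE-MMP28 against control. PFKFB3 was at 68.2, 60.3 and 59.5 CPM in control, 62.7, 51.8 and 50.2 in OE-MMP28, 55.3, 52.8 and 73.8 under anti-IL-8, and 81.2, 45.5 and 72.2 under anti-VEGFA.

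A fructose transporter, singled out after its values were seen, came closest to a further call. SLC2A5, at 1.24, 1.27 and 1.18 CPM in control and 2.42, 2.05 and 3.18 in OE-MMP28, had the largest log2 fold change after HK3, 1.04 (SE 0.29), and missed the threshold with an adjusted p of 0.061. With offsets for the GC content and length of transcripts, an alternative chosen after the values were seen, SLC2A5 (1.06, adjusted p 0.032) and TKT (0.50, adjusted p 0.027) joined the 3 called members, where 5.92% of all genes were called. Over the members, 10 of 47 (21.3%) had groups that did not overlap, which is also 21.3% over all genes.

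**Figure D3:**
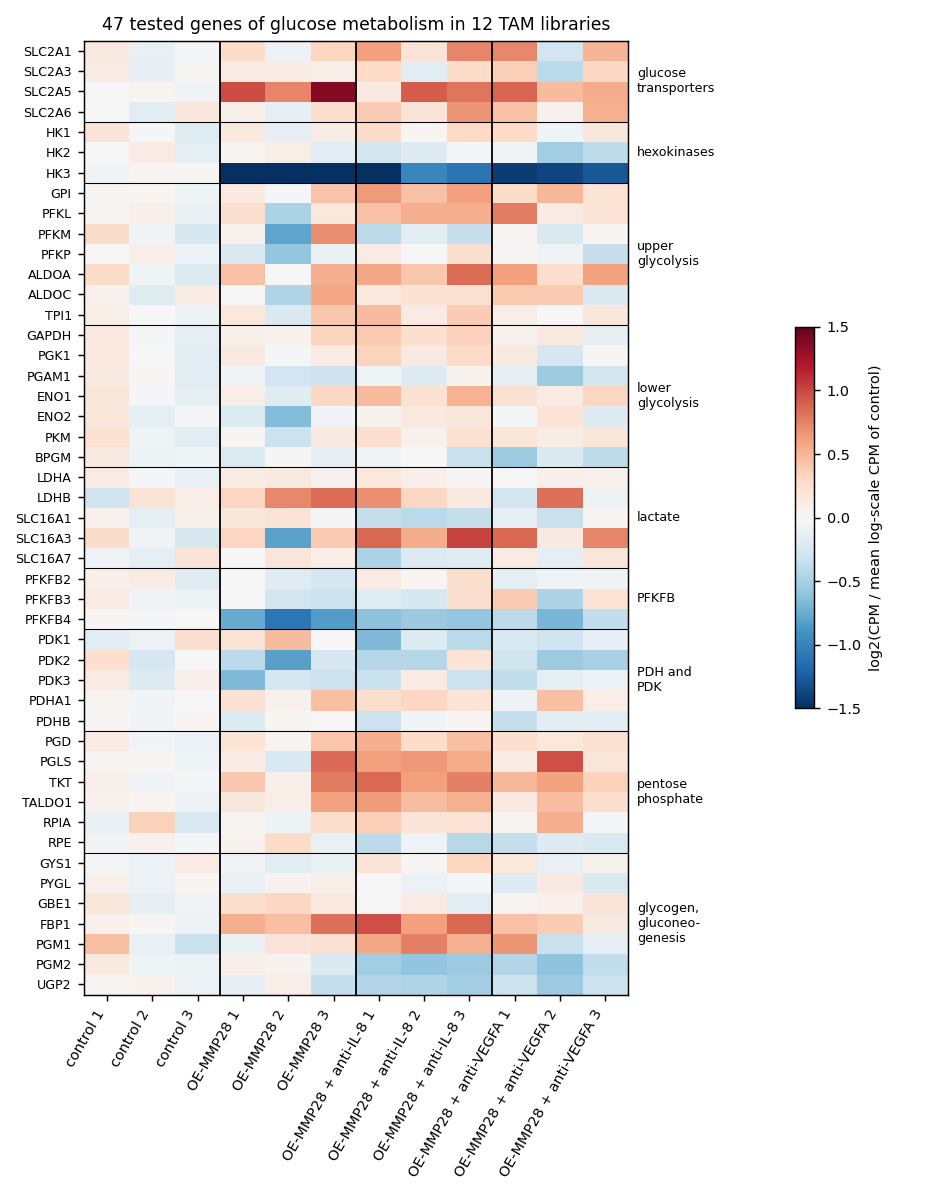
log2 ratio of each of the 47 tested genes (rows, grouped by step) in each of the 12 libraries (columns) to the mean log2 CPM of the control libraries, with colours cut off at 1.5 in either direction. HK3 has the lowest values, and PFKFB4 is the only other one below the control mean in all 9 libraries with MMP28-overexpressing cells.

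The next comparisons asked whether neutralizing IL-8 or VEGFA changed the OE-MMP28 pattern. Under anti-IL-8 against OE-MMP28, 0 of the 47 members were called, where 0% of all tested genes were. An unadjusted p of 0.05 was passed by 16 members (34%, against 29.3% of all genes), 10 of them higher and 6 lower under anti-IL-8 (13.4% and 15.9% of all genes). DESeq2 called 9 of the 39 members to which it gave an adjusted p, and 23.9% of the 10008 genes with one, while limma voom called 0. Leaving out OE-MMP28 replicate 3 brought the count to 15 members and 4125 of all genes, and leaving out anti-VEGFA replicate 2 to 5 members and 1166 genes. The members with the smallest p were PGM2, an enzyme of sugar phosphates (-0.53, SE 0.12), HK3 (1.16, SE 0.27), SLC16A1, a lactate and pyruvate transporter (-0.49, SE 0.12), PDK1, a pyruvate dehydrogenase kinase (-0.65, SE 0.17), all with an adjusted p of 0.063, and SLC16A3, the lactate exporter of glycolytic cells (0.75, SE 0.25, adjusted p 0.075). HK3, and PFKFB4 with a log2 difference of 0.30 (SE 0.13, adjusted p 0.12), stood above OE-MMP28 in every anti-IL-8 library and below control in each. With the offsets for GC content and length, the log2 difference was 0.78 for HK3 (adjusted p 0.30) and 0.05 for PFKFB4 (adjusted p 0.91).

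Anti-VEGFA against OE-MMP28 likewise gave 0 called members, where 0.343% of all genes were called. Here 11 members (23.4%, against 18.8% of all genes) had an unadjusted p under 0.05, 4 higher and 7 lower under anti-VEGFA (10.4% and 8.44% of all genes). DESeq2 called 2, PGM2 and PFKFB4, and 3.23% of the 13865 genes to which it gave an adjusted p. Without OE-MMP28 replicate 3, 2 members were called, PGM2 and HK3, as were 1402 of all genes. The smallest p-values were those of HK3 (log2 difference 0.99, SE 0.28, adjusted p 0.10), PGM2 (-0.44, SE 0.12, adjusted p 0.10), PFKFB4 (0.41, SE 0.13, adjusted p 0.12), PDK1 (-0.45, SE 0.17, adjusted p 0.18) and RPE, an epimerase of the pentose phosphate pathway (-0.34, SE 0.14, adjusted p 0.20). Their libraries did not overlap between the 2 groups, RPE being at 33.9, 39.6 and 30.7 CPM in OE-MMP28 and 25.6, 28.8 and 28.1 under anti-VEGFA. With the offsets these log2 differences were 0.70, -0.24, 0.25, -0.31 and -0.15 in the same order, and none was called. PDK1 was at 12.8, 15.3 and 11.0 CPM in OE-MMP28, 7.01, 9.61 and 8.37 under anti-IL-8, 9.44, 9.02 and 10.2 under anti-VEGFA, and 9.91, 10.5 and 13.1 in control.

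The differences under anti-IL-8 from OE-MMP28 moved with the base composition of the transcripts. Across the 47 members, the Spearman correlation of the log2 difference with the GC content of the longest transcript was 0.71, and across 16040 genes it was 0.70. These values share the 6 libraries of the comparison and describe it, and genes are not independent replicates. The 10 members with an unadjusted p under 0.05 that were higher under anti-IL-8 had a median GC content of 58.1%, and the 6 lower ones of 39.4%. For anti-VEGFA against OE-MMP28 the correlation was 0.66 across the members and 0.55 across all genes, and for OE-MMP28 against control it was -0.07 and -0.09. With the offsets, which remove the trend on GC content and length, 6 members rather than 16 had an unadjusted p under 0.05 for anti-IL-8 against OE-MMP28 (12.8%, against 10.4% of all genes). The offsets were fitted to each of these libraries, and the trend differed between the groups. They would thus also remove a difference in expression that follows GC content, and it cannot be told apart from a technical trend.

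**Figure D4:**
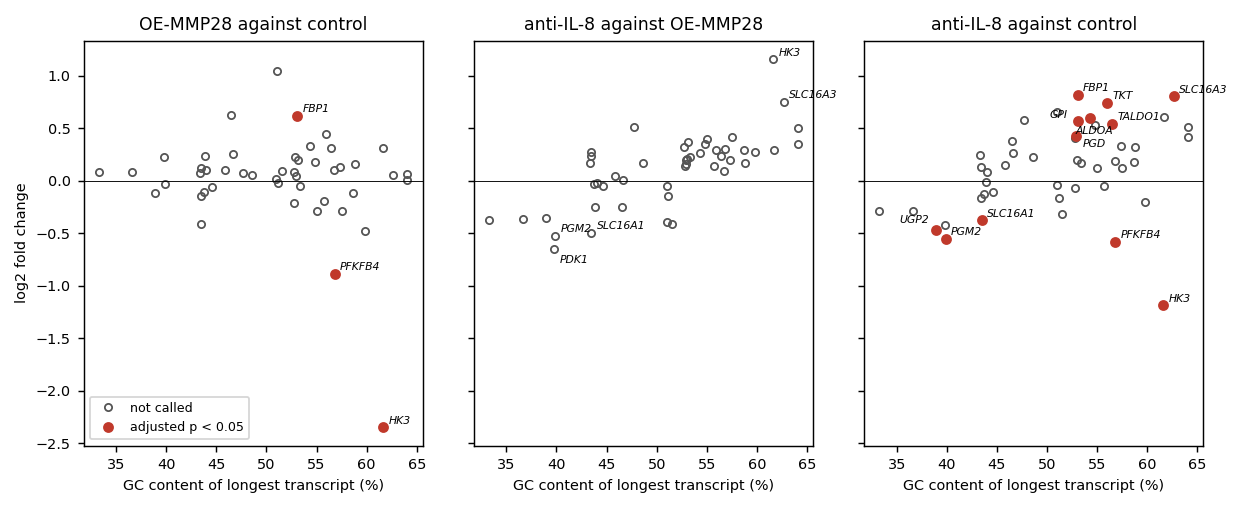
log2 fold change of the 47 tested members (vertical axis) against the GC content of their longest transcript (horizontal axis, percent) in 3 comparisons, with filled points for members called at an adjusted p of 0.05. The points rise with GC content for anti-IL-8 against OE-MMP28 (Spearman 0.71) and show no such slope for OE-MMP28 against control (-0.07).

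Set against control, the anti-IL-8 TAMs had 12 called members, 7 higher and 5 lower. That is 25.5% of the members, where 20.7% of all tested genes were called, 9.77% as higher and 10.9% as lower. The higher ones were the pentose phosphate enzymes TKT, TALDO1 and PGD, the gluconeogenic FBP1, the glycolytic GPI and ALDOA, and the lactate exporter SLC16A3. The lower ones were HK3, PFKFB4, PGM2, UGP2 and SLC16A1. The median log2 fold change was 0.17 over the members and -0.02 over all genes. With the offsets for GC content and length these medians were 0.09 and 0.008. The tested members had a median GC content of 52.8%, against 48.3% of all tested genes. By step, calls were found for 3 of 6 pentose phosphate genes, 2 of 7 in upper glycolysis, 3 of 7 in glycogen and gluconeogenesis, 2 of 5 around lactate, 1 of 3 hexokinases and 1 of 3 fructose-2,6-bisphosphate enzymes. No call was made for the 4 transporters, the 7 genes of lower glycolysis or the 5 tested genes around pyruvate dehydrogenase.

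TKT (ENSG00000163931, chr3:53224707-53256052) was at 171, 157 and 160 CPM in control, 215, 172 and 280 in OE-MMP28, 292, 249 and 275 under anti-IL-8, and 230, 248 and 207 under anti-VEGFA. All libraries of the other groups lay above control, the lowest OE-MMP28 library only just. The log2 fold change against control was 0.74 under anti-IL-8 (SE 0.15, adjusted p 0.0037) and 0.49 under anti-VEGFA (SE 0.15, adjusted p 0.046). The latter was lost in 10 of the 12 fits that left out a library, with an adjusted p of up to 0.16. TALDO1 rose by a log2 fold change of 0.55 under anti-IL-8 (SE 0.14, adjusted p 0.013) and PGD by 0.42 (SE 0.13, adjusted p 0.029). TALDO1 was at 165, 162 and 148 CPM in control, 178, 170 and 241 in OE-MMP28, 246, 218 and 229 under anti-IL-8, and 174, 218 and 187 under anti-VEGFA. PGD was at 533, 477 and 462 CPM in control, 566, 505 and 654 in OE-MMP28, 712, 592 and 671 under anti-IL-8, and 581, 547 and 575 under anti-VEGFA. For both genes the control libraries were below all anti-IL-8 libraries. Of the other pentose phosphate enzymes, PGLS had 0.61 (SE 0.23, adjusted p 0.070), RPIA 0.23 (adjusted p 0.38) and RPE was below 0, so that 3 of the 6 were called, all higher.

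GPI, the isomerase after hexokinase, was at 139, 139 and 130 CPM in control, 151, 135 and 182 in OE-MMP28, 212, 185 and 208 under anti-IL-8, and 164, 192 and 156 under anti-VEGFA. Control and anti-IL-8 did not overlap (log2 fold change 0.57, SE 0.13, adjusted p 0.0077). ALDOA, whose count is uncertain as described, was at 5.07, 3.99 and 3.61 CPM in control, 5.66, 4.21 and 6.12 in OE-MMP28, 6.24, 5.52 and 7.46 under anti-IL-8, and 6.42, 5.02 and 6.35 under anti-VEGFA. Its call under anti-IL-8 was just inside the threshold (0.60, SE 0.21, adjusted p 0.0497). SLC16A3 was at 388, 310 and 271 CPM in control, 401, 183 and 421 in OE-MMP28, 581, 468 and 644 under anti-IL-8, and 579, 351 and 531 under anti-VEGFA. The anti-IL-8 libraries were above all control and OE-MMP28 libraries, and the log2 fold change against control was 0.80 (SE 0.25, adjusted p 0.031). SLC16A1, which handles the same substrates, was at 160, 139 and 161 CPM in control, 171, 177 and 151 in OE-MMP28, 120, 116 and 119 under anti-IL-8, and 138, 121 and 155 under anti-VEGFA. The anti-IL-8 libraries were the lowest (log2 fold change -0.38, SE 0.12, adjusted p 0.039). The SLC16A3 share of the monocarboxylate transporter FPKM was 52.4% ± 5.00 in control, 50.1% ± 12.9 in OE-MMP28, 71.2% ± 3.09 under anti-IL-8 and 64.2% ± 4.14 under anti-VEGFA (SD, n = 3).

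PGM2 (ENSG00000169299, chr4:37826633-37862937) interconverts sugar phosphates and made up 98.9% of the summed FPKM of PGM1 and PGM2 in control. This share does not measure which of the 2 enzymes carries a given reaction. It was at 101, 87.3 and 86.4 CPM in control, 96.3, 94.8 and 78.5 in OE-MMP28, 63.9, 60.7 and 62.7 under anti-IL-8, and 67.6, 60.3 and 71.0 under anti-VEGFA. Both antibody groups were below all libraries of control and of OE-MMP28, which overlapped with each other. The log2 fold change against control was -0.55 under anti-IL-8 (SE 0.12, adjusted p 0.0062) and -0.47 under anti-VEGFA (SE 0.12, adjusted p 0.021). The anti-VEGFA call was lost without control replicate 1 or 2 or anti-VEGFA replicate 2 (adjusted p 0.12, 0.062 and 0.079). UGP2, which makes UDP-glucose for glycogen, was at 60.5, 60.9 and 55.4 CPM in control, 54.0, 63.2 and 46.4 in OE-MMP28, 43.4, 43.2 and 41.5 under anti-IL-8, and 47.6, 40.3 and 47.1 under anti-VEGFA. Both antibody groups were below control, and the anti-IL-8 group was called (log2 fold change -0.47, SE 0.13, adjusted p 0.019).

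The changes under anti-IL-8 against control also moved with base composition, with a Spearman correlation between log2 fold change and GC content of 0.43 over the members and 0.51 over all genes. The 7 higher members had a median GC content of 54.3% and the 5 lower ones of 43.5%. With the offsets 7 members were called, where 13.5% of all genes were, of which FBP1, HK3, TKT, PFKFB4 and GPI were among the 12, and PGK1 and PDK2 were added. PGM2, TALDO1, UGP2, PGD, SLC16A3, SLC16A1 and ALDOA lost the call, with adjusted p from 0.12 to 0.44. HK3 and PFKFB4, which fell and have a GC content of 61.6% and 56.8%, had larger changes with the offsets, -1.55 and -0.81. The count was also 6 or 7 without control replicate 2 or 3 or anti-IL-8 replicate 1 or 3, and 19 without OE-MMP28 replicate 3. The count over all genes moved with it, from 3317 to 1340 and 1394 without control replicate 2 and 3, 1312 and 1361 without anti-IL-8 replicate 1 and 3, and 4168 without OE-MMP28 replicate 3. Of the 12 fits that left out a library, SLC16A1 lost its call in 8, ALDOA in 6, UGP2, PGD and SLC16A3 in 4 each and TALDO1 in 2.

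**Figure D5:**
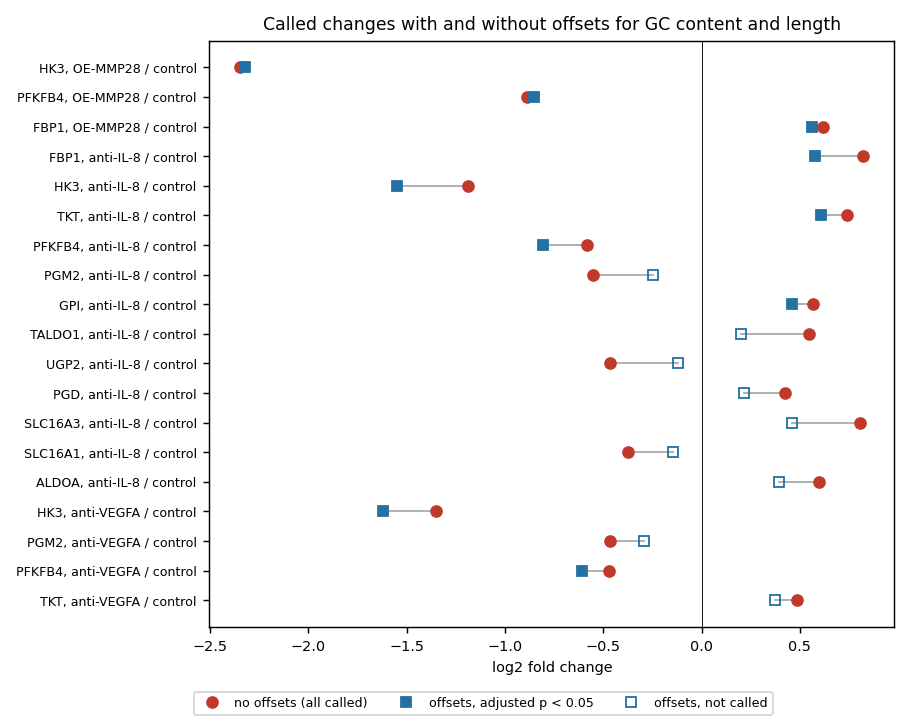
log2 fold change (horizontal axis) of the 19 called changes against control, without offsets (circles) and with offsets for GC content and length (squares, filled where the adjusted p stayed under 0.05). The 6 HK3 and PFKFB4 changes keep their call, and HK3 under anti-IL-8 moves from -1.19 to -1.55.

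Under anti-VEGFA against control, 4 members were called, TKT higher and HK3, PGM2 and PFKFB4 lower. This is 8.51% of the members, where 11% of all tested genes were called, 5.6% as higher and 5.37% as lower. UGP2 followed with a log2 fold change of -0.39 and an adjusted p of 0.061. With the offsets 3 members were called, HK3, PFKFB4 and PDK2, which had a log2 fold change of -0.67 (adjusted p 0.0086), against 11.9% of all genes, and TKT and PGM2 had an adjusted p of 0.069 and 0.083. Without control replicate 1, 2 or 3 the count was 1, 1 and 2, and that over all genes went from 1760 to 788, 662 and 954.

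A separate list held 73 other genes of glucose metabolism, and it gave 11 calls of 55 tested under anti-IL-8 against control, 8 higher and 3 lower, which is 20% where 20.7% of all genes were called. PDP1, a phosphatase that reactivates pyruvate dehydrogenase, fell from 135 ± 9.27 CPM in control to 67.7 ± 11.0 under anti-IL-8 (log2 fold change -0.99, SE 0.14, adjusted p 1.7e-04; SD, n = 3). PDHX, a structural subunit of the pyruvate dehydrogenase complex, fell by 0.58 on the log2 scale (adjusted p 0.0085), and GAA, the lysosomal enzyme that degrades glycogen, rose by 0.62 (adjusted p 0.012), a call that the offsets ended (adjusted p 0.13). Under anti-VEGFA, 5 of the 55 were called, 4 higher and 1 lower, which is 9.09% where 11% of all genes were called. Among them were PYGM, the muscle glycogen phosphorylase, at 0.764 ± 0.362 CPM in control and 4.57 ± 1.58 under anti-VEGFA (2.57, SE 0.38, adjusted p 2.9e-04), PHKG2, a subunit of phosphorylase kinase (0.60, adjusted p 0.035), and ENO3, the muscle enolase (0.78, adjusted p 0.036), while the lower one had the largest p of the called genes. The control level of PYGM was low, so its fold change rests on few counts there. Leaving out a library took the adjusted p to at most 0.0037 for PDP1 and 0.0045 for PYGM, but to as much as 0.071 for PDHX, 0.14 for PHKG2 and 0.15 for ENO3, whose offset value also missed the threshold (adjusted p 0.052).

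Among 30 tested regulators of the pathway, 7 were called under anti-IL-8 against control, 3 higher and 4 lower, which is 23.3% where 20.7% of all genes were called. HIF1A, the hypoxia-inducible factor that drives many glycolytic genes, averaged 275 ± 19.4 CPM in control, 261 ± 53.6 in OE-MMP28, 154 ± 34.7 under anti-IL-8 and 262 ± 37.4 under anti-VEGFA (SD, n = 3). Its log2 fold change under anti-IL-8 against control was -0.83 (SE 0.17, adjusted p 0.0041), and -0.51 with the offsets (adjusted p 0.010). Also called were SIRT6, a deacetylase that represses glycolytic genes (0.87, adjusted p 0.0050), and ESRRA, a receptor of mitochondrial gene programs (0.67, adjusted p 0.0084). Under anti-VEGFA, 5 regulators were called, all higher (16.7%, against 11% of all genes), among them SIRT6 (0.73, adjusted p 0.018), ESRRA (0.55, adjusted p 0.032) and ARRDC4, a glucose-responsive arrestin (0.64, adjusted p 0.033). ESRRA lost both calls with the offsets (adjusted p 0.098 and 0.11), and when a library was left out the highest adjusted p under anti-VEGFA was 0.084 for SIRT6, 0.15 for ESRRA and 0.14 for ARRDC4. No regulator and no other gene of glucose metabolism was called by edgeR when an antibody group was set against OE-MMP28 or against the other antibody, although 13 and 7 regulators had an unadjusted p under 0.05 for anti-IL-8 and anti-VEGFA against OE-MMP28 (43.3% and 23.3%, against 29.3% and 18.8% of all genes).

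Between the antibodies directly, 0 members were called, where 0.199% of all genes were. An unadjusted p under 0.05 was found for 4 members (8.51%, against 15% of all genes). DESeq2 called 1, FBP1, and 1.58% of the 15793 genes to which it gave an adjusted p. Of the 47 members, 11 were higher under anti-VEGFA than under anti-IL-8 (23.4%, against 52.2% of all genes), with a median log2 difference of -0.12 against 0.02 over all genes. All 7 genes of lower glycolysis were below 0 and GAPDH had no overlap between the antibodies (log2 difference -0.31, SE 0.13, adjusted p 0.29). The Spearman correlation of the log2 difference with GC content was -0.37 over the members and -0.26 over all genes. With the offsets 14 members were higher, and the median was -0.07 against 0.006 over all genes. PKM then lay above 0, at 0.08. PGK1, phosphoglycerate kinase, was at 436, 378 and 420 CPM under anti-IL-8 and 380, 290 and 348 under anti-VEGFA, which overlapped (-0.28, SE 0.13, adjusted p 0.33). SLC16A7 was at 34.0, 40.7 and 41.2 CPM under anti-IL-8 and 51.0, 42.5 and 53.2 under anti-VEGFA. SLC16A7, a monocarboxylate transporter, and SLC16A1 lay above 0, at 0.34 (SE 0.13, adjusted p 0.26) and 0.23 (SE 0.12, adjusted p 0.39). With OE-MMP28 replicate 2 and anti-VEGFA replicate 2 both left out, FBP1 was called in this comparison (-0.55, adjusted p 0.029).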

How the data were processed

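RNA-seq counts per gene and FPKM values of 12 TAM libraries in 1 table were used as deposited. The counts were made by the authors from reads aligned with HISAT2 2.0.5 and counted with featureCounts 1.5.0-p3, per the submitters' processing notes. The FPKM values were computed by the authors from the counts, the length of each gene and the library size, and served for levels between genes and for isoenzyme shares. Libraries were prepared with a NEBNext Ultra kit, and whether counting used strand is not given in the sources used here. The genome build is not stated, but the start and end of all 58735 genes in the table equal those of GENCODE 29 on GRCh38. Fold changes and p-values of the authors' 6 comparisons in the same table were not used.

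Genes were filtered with filterByExpr, scaled by TMM and fitted over the 4 groups of 3 libraries with edgeR 4.0.16 (quasi-likelihood, in R 4.3.3), and p-values were adjusted over 16046 genes by the Benjamini-Hochberg method in each of 6 comparisons. CPM values are TMM-scaled. A gene was called at an adjusted p under 0.05. In each comparison the called genes were named, up to 12 by p, or the 5 with the smallest p where none was called. Gene lists and members were chosen with earlier results of these data known. Alternatives used limma 3.58.1 and DESeq2 1.42.0, other scalings, filters and models, and the omission of each library, 14 kinds in all, and 3 more were added after the values were seen. The main fit did not pair libraries by replicate number, since the labels do not say whether they were paired. Some genes of the lists outside the 48 are not reported here by name. Figures were drawn with Python 3.11.15 and matplotlib 3.10.9. The library totals of 15852346 to 18701195 counts set the precision of low genes.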

Additional observations from a re-analysis of the deposited data

How the results depend on the processing

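The count of called members was 3 for OE-MMP28 against control, 0 for each antibody against OE-MMP28, 12 for anti-IL-8 and 4 for anti-VEGFA against control, and 0 between the antibodies. At an unadjusted p of 0.05 these counts were 8, 16, 11, 22, 16 and 4 in the order OE-MMP28 against control, anti-IL-8 and anti-VEGFA against OE-MMP28, anti-IL-8 and anti-VEGFA against control, and between the antibodies. With DESeq2 they were 9 and 2 for anti-IL-8 and anti-VEGFA against OE-MMP28, and 1 between the antibodies. Without the filter on low counts they were 6 and 1 for the antibodies against OE-MMP28, and with the mitochondrial share as a covariate also 6 and 1. With offsets for GC content and length they were 5 for OE-MMP28 and 7 for anti-IL-8 against control. With OE-MMP28 replicate 2 and anti-VEGFA replicate 2 left out together they were 7, 20 and 9 for OE-MMP28, anti-IL-8 and anti-VEGFA against control and 1 between the antibodies. Fitted on the 2 groups alone, anti-IL-8 against control gave 24. Leaving out each library in turn gave 2 to 5 for OE-MMP28 against control, 0 to 15 and 0 to 2 for anti-IL-8 and anti-VEGFA against OE-MMP28, 6 to 19 and 1 to 6 for the same antibodies against control, and 0 to 0 between them. With a replicate block, anti-IL-8 against OE-MMP28 gave 5 members and 795 genes. The labels do not say whether same-numbered libraries were paired. Of 18 correlations of same-numbered deviations, 4 were above 0.1 (range -0.16 to 0.237). With 3 libraries per group these correlations cannot settle whether a pairing exists. Over all genes, OE-MMP28 against control went from 507 calls to 949 with the offsets and 1078 with both libraries out. Anti-IL-8 against OE-MMP28 went from 0 to 2391 with DESeq2, 1438 without the filter and 1739 with the mitochondrial covariate. Anti-VEGFA against OE-MMP28 went from 55 to 448, 400 and 310 in the same order, and to 1 on the 2 groups alone. Anti-IL-8 against control went from 3317 to 2165 with the offsets, 6039 on the 2 groups alone and 5278 with both libraries out. Between the antibodies the count went from 32 to 250 with DESeq2, 277 without the filter, 212 with the offsets, 176 with the covariate, 748 with both libraries out, 17 on the 2 groups alone, 57 with at least 10 counts in every library, 60 with protein-coding genes alone and 53 with FPKM at a pseudocount of 1. Scaled to library totals, the share of higher calls for anti-IL-8 against control went from 47.2% to 35.9%. Of 917 recomputed fold changes of named genes, 812 kept their direction and side of the threshold, 70 lost and 35 gained a call, and 0 reversed. Why the counts move was not tested. Low genes are limited by depth, SLC2A5 and HK3 having at most 5.37 CPM, and so is PYGM in control.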
